A study of Bos taurus with 47 samples.

Results

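Longissimus thoracis muscle of F1 heifers was compared between slaughter and birth, the 2 ends of postnatal growth. All 15 samples labelled with slaughter and all 16 labelled with birth entered, which is 31 of the 47 samples of the series. The remaining 16 samples, F2 fetuses, are only set beside the others as levels. The birth samples were biopsies taken between the ribs before the calves suckled, and the slaughter samples were taken when the same generation was harvested. The labels state no age at slaughter. Every F1 animal was the offspring of an F0 heifer that gained 0.28 kg per day (LG) or 0.79 kg per day (MG) over the first 84 days of gestation, after which the dams were managed as 1 group. Birth held 8 LG and 8 MG samples. Slaughter held 8 LG and 7 MG samples by the sample labels, which were followed, while the protocol text gives 7 LG and 8 MG. LG and MG were given equal weight within each stage.

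The longissimus is the long muscle of the back. In cattle the number of muscle fibres is largely set before birth, and the muscle then grows mainly because existing fibres lengthen and thicken while satellite cells add nuclei to them. Over the same period developmental forms of myosin and other contractile proteins give way to adult forms, and fat cells accumulate between the fibres. These points are background. The deposited tables name genes by identifier, the files do not pair these identifiers with symbols, and 0 of 27607 could be matched to a symbol, so the labelled tissue could not be checked against its markers and no function is given for any gene. Abundant genes are therefore described by their rank at each stage, and only the 4 identifiers with the largest changes among genes of sufficient level are given. Whole muscle was measured, so fewer cells of a type and less RNA per cell cannot be told apart.

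Each birth sample held between 13308433 and 22671822 counts, with a median of 18924547, and each slaughter sample between 14972276 and 32547565, with a median of 18334323. Of the 27607 identifiers, 22028 had a count in these samples and 13369 were abundant enough to be tested. The first principal component of log2 CPM, counts scaled to the size of the library, took 52.5% of the variance over the 31 samples. It placed birth samples between -65.9 and -43.6 and slaughter samples between 43.2 and 64.6, with no overlap. One sample, birth MG 17, stood apart within its stage, and some of the values that turn or move without it are also given without it. Stage also separates the tables, the way tissue was taken and the time of sampling, and these cannot be told apart. No label ties a sample number to an animal, and p-values speak only to the spread among the samples at hand, which may be technical.

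Most genes differed between the 2 stages, but most of the differences were small. With edgeR's quasi-likelihood test, 9390 of 13369 genes passed an adjusted p of 0.05, which is 70.2%. Of these, 4944 rose between birth and slaughter (37%) and 4446 fell (33.3%). The median absolute change of the genes called was 1.66-fold, and 66.6% of them changed by less than 2-fold. The direction of the small excess of rises rested on the scaling and on 1 sample. Without birth MG 17, 4672 genes rose and 4697 fell with TMM scaling. With total counts and no composition scaling, 4166 genes rose and 5031 fell, and the median log2 change of all tested genes was -0.05 in place of 0.05. With TMM factors computed without the 100 most abundant genes, 4541 rose and 4845 fell.

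A test against a change of 2-fold left 1839 genes (13.8%), of which 1046 rose (7.82%) and 793 fell (5.93%). With total counts the split was 883 rising and 940 falling. Sorted by the size of the fitted change among all genes called, 1358 genes rose and 1012 fell by 2-fold to 4-fold. Another 299 rose and 213 fell by 4-fold to 8-fold. Over 8-fold lay 153 rises and 104 falls. Rises outnumbered falls in each of these size classes with TMM scaling, and the largest changes made up a small part of either.

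The genes that rose beyond 2-fold were scarce at birth, and those that fell were not scarce at birth. The median level of the 1046 rising genes was 2.49 CPM at birth and 10.2 CPM at slaughter. For the 793 falling genes the median was 16.8 CPM at birth and 4.07 CPM at slaughter, while over all tested genes it was 10.9 and 11.2 CPM. These levels follow in part from how the genes were selected, since a gene that changed this far is low at one stage relative to the other. In the fetal samples, on the same scale, the rising genes had a median of 4.06 CPM and the falling genes 11.8 CPM, against 11.6 CPM over all genes. The fetal level of both sets lay between the birth level and the slaughter level, which their selection by those 2 stages favours.

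**Figure D1:**
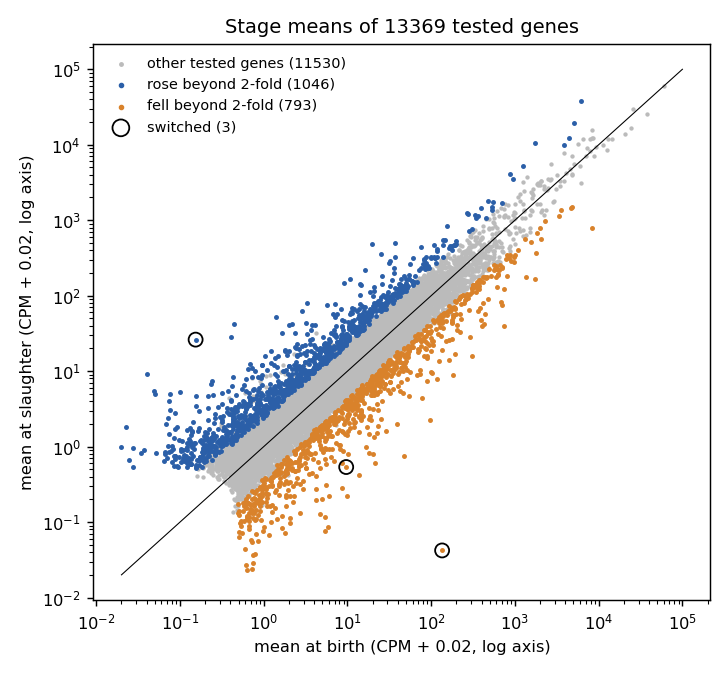
Mean level of each of the 13369 tested genes at birth (horizontal, CPM plus 0.02, log axis) against its mean at slaughter (vertical, same scale). The 1046 genes that rose beyond 2-fold are blue, the 793 that fell are orange, and the 3 genes that were switched are ringed; the line marks equal levels, and the ringed gene farthest from it fell from a birth mean of 135 CPM to 0.0221 CPM.

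Counted by adjusted p alone, rises were more common than falls among genes of low level, and falls were more common among genes of high level. Of the 2871 genes with a mean level of 1 to 4 CPM, 37.8% rose and 24.2% fell. Of the 1453 genes under 1 CPM, 35.0% rose and 24.7% fell. The pattern turned at higher levels. Of the 3344 genes at 16 to 64 CPM, 35.97% rose and 41.2% fell, and of the 407 genes over 256 CPM, 39.1% rose and 42.8% fell. Between them, at 4 to 16 CPM, 37.2% rose and 32.9% fell, which with total counts became 30.1% and 36.9%, and without birth MG 17 became 34.7% and 34.9%. In the classes under 4 CPM rises outnumbered falls, and in those over 16 CPM falls outnumbered rises, under all 4 scalings that were run and without birth MG 17. With the reported TMM scaling, changes beyond 2-fold turned at a higher level. At 4 to 16 CPM 261 genes rose and 202 fell beyond 2-fold. At 16 to 64 CPM 178 rose and 147 fell. At 64 to 256 CPM 94 rose and 103 fell, and over 256 CPM 37 rose and 52 fell. With total counts they turned at 4 to 16 CPM, where 210 rose and 232 fell. Total counts gave 154 and 190 at 16 to 64 CPM. There, TMM factors computed without the 100 most abundant genes gave 167 and 171.

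The 153 genes that rose over 8-fold and the 104 that fell over 8-fold were mostly scarce genes. Among the rising ones the median level went from 0.242 CPM at birth to 4.05 CPM at slaughter, and 112 had a birth mean under 1 CPM. At slaughter 49 of the 153 reached a mean of 10 CPM and 11 reached 100 CPM. Together they took 0.0367% of all counts at birth and 0.436% at slaughter. Among the falling ones the median level went from 5.54 CPM at birth to 0.292 CPM at slaughter, 41 of 104 had a birth mean of at least 10 CPM, and 17 had at least 100 CPM. Their share of counts went from 1.66% to 0.141%. The genes that fell this far thus held more of the counts at birth than the genes that rose this far held at slaughter.

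Few genes were switched in the strict sense of at least 5 CPM in every sample of one stage and under 1 CPM in every sample of the other. One gene was switched on at slaughter and 2 were switched off. The count depends on the thresholds. With 3 CPM and 0.5 CPM as the limits, 0 were on and 1 was off, and with 10 CPM and 1 CPM, 1 was on and 0 were off. Leaving out birth MG 13, birth LG 25 or birth MG 37 gave 2 genes switched on in place of 1.

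The gene switched on at slaughter was ENSBTAG00000009489, which also had the largest rise among genes with a mean log2 CPM of 3 or more. At birth its level was 0 CPM at the lowest, 0.0946 CPM at the median and 0.711 CPM at the highest, from 41 counts in 11 of 16 samples. At slaughter the lowest sample had 13.4 CPM, the median 26.2 CPM and the highest 35.9 CPM, from 7592 counts. The lowest slaughter sample was far above the highest birth sample. The log2 change was 7.79 (SE 0.27), with an adjusted p of 6.12e-21 by edgeR's quasi-likelihood test. It was 6.81 in LG and 8.77 in MG, a difference with an adjusted interaction p of 1.00. In LG birth samples the mean was 0.215 CPM and in MG birth samples 0.0520 CPM, so the size of the fold rests on very few counts. Fetal samples ranged from 0 to 1.04 CPM with a median of 0.462 CPM, so this gene was scarce in fetal as well as in newborn muscle.

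Of the genes with that mean or more, ENSBTAG00000008026 had the largest fall, and it was also one of those switched off. At birth it had 120 CPM at the median and 343 CPM at the highest. The lowest birth sample, birth MG 15, had 5.68 CPM, while the next lowest, birth LG 05, had 54.4 CPM. At slaughter it was at 0 CPM at the lowest and at the median and at 0.121 CPM at the highest, with 6 counts in 5 of 15 samples against 40200 counts at birth. The stages did not overlap. The log2 change was -12.21 (SE 0.57), with an adjusted p of 1.29e-17, and it was -11.93 in LG and -12.49 in MG. With so few counts at slaughter the fitted fold depends on the small count added in the fit. Fetal samples had 0.370 CPM at the median and 1.46 CPM at the highest, so of the 3 sampled stages only birth had this gene at more than 2 CPM.

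The second gene switched off lay near the thresholds. It ranged from 6.68 to 13.3 CPM at birth, with a median of 9.78 CPM, and from 0.288 to 0.783 CPM at slaughter, with a median of 0.449 CPM. Its level was even within each stage, and its log2 change of -4.20 (SE 0.15) was smaller in size than those of the genes given here by identifier. In fetuses its mean was 9.76 CPM, close to the birth level.

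Among genes whose mean log2 CPM was 3 or more, ENSBTAG00000010981 had the second largest rise. At birth it ranged from 0.0532 to 1.27 CPM with a median of 0.400 CPM, and at slaughter from 17.2 to 118 CPM with a median of 38.0 CPM. The stages did not overlap, and the highest slaughter sample, slaughter MG 20, was well above the next at 52.6 CPM in its group. Its log2 change was 6.72 (SE 0.30, adjusted p 4.26e-18), with 7.03 in LG and 6.41 in MG. Unlike ENSBTAG00000009489 it was present in fetuses, at 10.2 to 39.3 CPM with a median of 18.3 CPM. Its level was therefore lowest at birth of the 3 sampled stages. Fetuses are of the next generation and are set beside the F1 animals, not tested against them.

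Among genes whose mean log2 CPM was 3 or more, ENSBTAG00000051102 had the second largest fall. At birth it ranged from 22.4 to 108 CPM with a median of 42.7 CPM, and at slaughter from 0.178 to 1.88 CPM with a median of 0.629 CPM. On the log2 scale the change was -5.98 (SE 0.27, adjusted p 4.61e-18), with -5.88 in LG and -6.08 in MG. It missed the strict definition of a switch because some slaughter samples exceeded 1 CPM. Fetal samples ranged from 7.58 to 40.5 CPM with a median of 19.3 CPM.

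**Figure D2:**
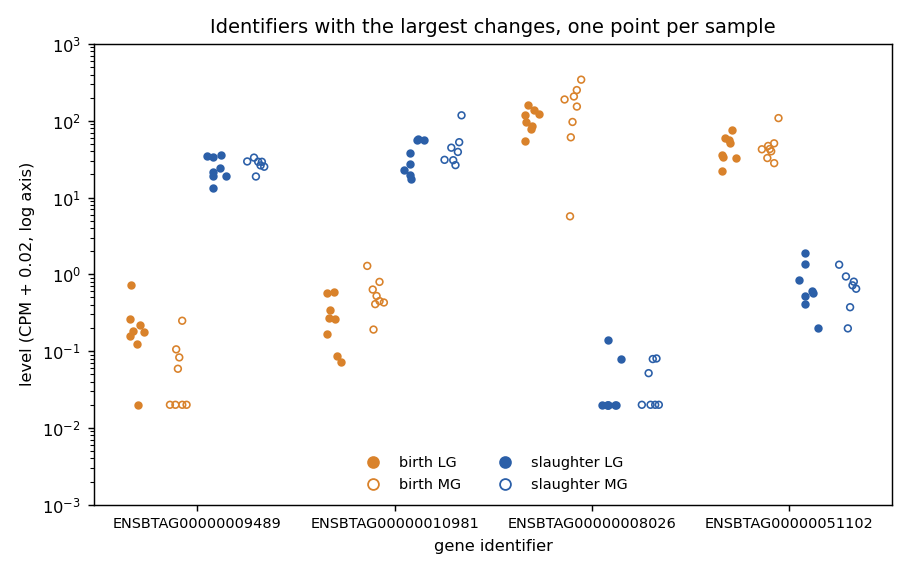
Level of the 4 identifiers in every sample (vertical, CPM plus 0.02, log axis, so that points at 0.02 had no count), with filled points for LG and open points for MG. For each identifier the birth samples (orange) and the slaughter samples (blue) do not overlap, and the widest separation is that of ENSBTAG00000008026, from a birth median of 120 CPM to a slaughter median of 0 CPM.

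Complete separation of the stages was found well beyond the genes with large changes. In 1875 of 13369 genes (14%) no slaughter sample overlapped any birth sample, with 877 higher at slaughter and 998 lower. Of the 1046 genes that rose beyond 2-fold, 511 were separated (48.9%), and of the 793 that fell, 490 were (61.8%). The other 838 genes that changed beyond 2-fold had at least 1 sample inside the range of the other stage. In the other direction, 76 of the separated genes had a fitted change under 1.5-fold. A large change and a clean separation were thus not the same set of genes.

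Beyond the first 10 ranks, most of the abundant genes were abundant at both stages, although most of their levels differed. CPM does not correct for gene length, so ranks order the counts and not the molecules. Of the 10 genes with the highest mean at birth, 5 were among the 10 highest at slaughter. The shared number was 40 of 50, 79 of 100, 379 of 500 and 786 of 1000. The 100 most abundant genes at either stage made a set of 121, of which 59 rose, 42 fell and 20 were not called. The share called was 83.5%, against 70.2% of all tested genes. Beyond 2-fold, 16 of the 121 rose and 14 fell, together 24.8% against 13.8% of all tested genes. A gene that enters this set at only 1 stage is more likely to have changed, so the shares are a description. Genes of high level were also called more often in general. Of the 407 genes with a mean over 256 CPM, 39.1% rose and 42.8% fell. Beyond 2-fold, 37 of the 407 rose and 52 fell.

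The most abundant gene was the same at both stages. Its level at birth was 12809 CPM at the lowest, 61426 CPM at the median and 77324 CPM at the highest, and at slaughter 39322, 62630 and 82668 CPM. The lowest birth value was that of birth MG 17. With that sample included, the log2 change was 0.01 (SE 0.15) with an adjusted p of 0.945 by edgeR. The change without it is not given. The third most abundant gene was also the same, with a log2 change of 0.20 (SE 0.12) that did not pass the test (adjusted p 0.124).

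The 3 genes below climbed into the 10 most abundant at slaughter with changes beyond 2-fold. The first rose from rank 21 at birth to rank 2. Birth samples had 964 CPM at the lowest, 5706 CPM at the median and 17418 CPM at the highest, and slaughter samples had 24777, 35394 and 49032 CPM. The stages did not overlap, and the spread narrowed from an 18.1-fold range between birth samples to a 1.98-fold range at slaughter. The log2 change was 2.64 (SE 0.35, adjusted p 1.04e-07), with 2.22 in LG and 3.06 in MG. In fetuses its mean was 2.63 CPM, a level of the next generation that is only set beside the F1 values.

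The next climber went from rank 25 to rank 5. Birth samples had 891 CPM at the lowest, 4059 CPM at the median and 12666 CPM at the highest, a 14.2-fold range, and slaughter samples had 9296, 19942 and 25214 CPM. These ranges overlapped. Its log2 change was 1.96 (SE 0.33), with an adjusted p of 0.00602 against 2-fold, and the fetal mean was 36.9 CPM. The third climber went from rank 33 to rank 10, from 2665, 4402 and 6024 CPM at birth to 9314, 12255 and 15454 CPM at slaughter. Its samples were even within each stage and did not overlap between them, with a log2 change of 1.45 (SE 0.10, adjusted p 3.86e-14). Its fetal mean was 1.39 CPM.

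The first and second climbers were low at birth in the same samples. The 8 birth samples with the lowest levels of the rank 2 gene were the same 8 that had the lowest levels of the rank 5 gene, 4 of them LG and 4 MG. For the rank 2 gene those samples lay between 964 and 4602 CPM and the other 8 between 6811 and 17418 CPM. For the rank 5 gene the values were 891 to 4037 CPM and 4080 to 12666 CPM, where the boundary is a narrow gap. This is a description of the samples at hand, noticed after their values were seen.

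Among the other genes in the top 10, changes were below 2-fold. Genes ranked 13 and 12 at birth moved to ranks 7 and 9, with log2 changes of 0.92 and 0.53. Those ranked 2, 4 and 5 at birth moved to ranks 4, 6 and 8, with log2 changes of -0.54, -0.55 and -0.57. The gene of rank 2 at birth, for example, had 23183 CPM at the lowest, 38078 CPM at the median and 45862 CPM at the highest there, against 18655, 27888 and 30906 CPM at slaughter. Of the 5 genes that left the top 10, those of rank 6 and rank 8 at birth fell, with log2 changes of -0.28 and -0.56, while those of rank 7, 9 and 10 did not pass the test, with log2 changes of -0.09, -0.20 and 0.03.

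**Figure D3:**
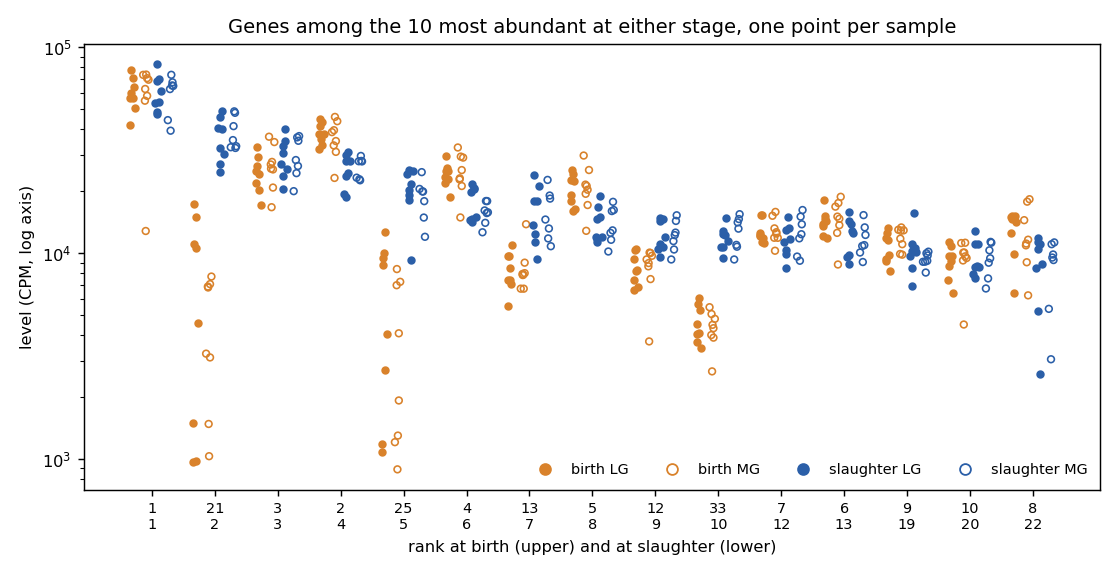
Level in every sample (vertical, CPM, log axis) of the 15 genes that were among the 10 most abundant at birth or at slaughter, ordered by rank at slaughter, with filled points for LG and open points for MG. The genes of rank 21 and rank 25 at birth spread widely between birth samples (orange), 18.1-fold and 14.2-fold, and are high and closer together at slaughter (blue).

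The counts became concentrated in fewer genes, although not in the very first ranks. Between 61 and 169 genes, median 77, held 50% of a birth sample's counts, and between 48 and 71 genes, median 58, held 50% of a slaughter sample's. The means were 83.4 ± 26.2 (SD, n = 16) and 57.5 ± 6.41 (SD, n = 15), with a two-sided permutation p of 2e-05, the smallest that 100000 resamples can give, and 6e-05 adjusted over 3 measures. Without birth MG 17, at 169, the birth mean was 77.7 with the same p. The share held by the 10 most abundant genes was 23.7% ± 2.28 at birth and 23.8% ± 1.16 at slaughter (permutation p 0.86). Leaving out birth MG 17, at 17.3%, put the birth mean at 24.1%, above slaughter, and the difference still did not pass (permutation p 0.56). With every sample thinned to 13308433 counts, 16282.5 genes had a count at birth on average and 16158.7 at slaughter (permutation p 0.31).

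**Figure D4:**
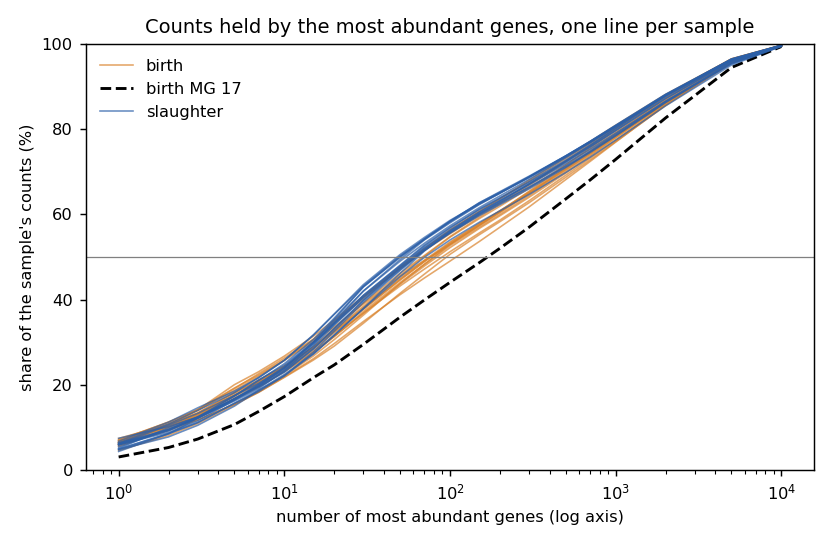
Share of each sample's counts (vertical, percent) held by its most abundant genes (horizontal, number of genes, log axis), 1 line per sample, with birth in orange, slaughter in blue and birth MG 17 dashed in black. The lines run together at 10 genes and part around 50, where slaughter samples reach 50% of counts with 48 to 71 genes and birth samples with 61 to 169.

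In terms of the RNA as a whole, 22.02% of counts lay on other genes at slaughter than at birth when the mean shares of the stages were compared. Gains were concentrated in fewer genes than losses, as 19 genes made up 50% of the gain and 62 genes made up 50% of the loss. The gene of rank 2 at slaughter alone gained 2.99 percentage points, which was 13.6% of all gain. The 8 genes that gained most took 8.00 points, or 36.3%. The largest loss, 1.36 percentage points (a change of -1.36), was that of the rank 2 gene at birth. Between single samples the same measure had a median of 10.1% within birth (range 6.77 to 20.9%), 10.3% within slaughter (range 6.14 to 18.0%) and 24.3% between stages (range 19.4 to 32.6%). Birth MG 17 set the upper end within birth, at 12.1 to 20.9% from the others, and without it the range was 6.77 to 15.1%.

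Genes that rose held 26.9% ± 1.53 of a sample's counts at birth (SD, n = 16) and 48.5% ± 1.48 at slaughter (SD, n = 15). Genes that fell held 45.8% ± 1.99 and 25.6% ± 1.26. For changes beyond 2-fold the rising genes went from 4.25% ± 1.09 to 15.4% ± 1.46 and the falling genes from 10.1% ± 0.986 to 2.75% ± 0.169. These shares describe the genes called and are not a further test.

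Among the 5762 genes with a mean of at least 10 CPM at both stages, the median SD between samples was 0.234 log2 CPM at birth and 0.225 at slaughter. In 261 genes the SD at birth was over 2 times that at slaughter, and in 200 genes the reverse held. Without birth MG 17 these counts were 217 and 250, so which stage had more such genes turned on that sample. The genes that varied more at birth included more large rises. With all samples, 44 of the 261 rose beyond 2-fold (16.9%) and 12 fell (4.60%), while of all 5762 genes 255 rose (4.43%) and 253 fell (4.39%). Without birth MG 17, 38 of the 217 rose and 8 fell. Of the 200 genes that varied more at slaughter, 4 rose and 12 fell. The spread and the change share the same samples, so the counts are given without a test.

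Postnatal changes ran in the same direction in the offspring of both maternal gain groups. Within LG, 7918 genes passed the test (59.2%), with 4203 rising and 3715 falling, and within MG 7663 did (57.3%), with 3932 rising and 3731 falling. Both groups called 6690 genes, which is 84.5% of the LG genes and 87.3% of the MG genes, and 6689 of them changed in the same direction. All 1839 genes that changed beyond 2-fold had the same direction in LG and MG, which their choice by the mean of both favours, and 1429 of them (77.7%) had changes within 1.5-fold of each other. Across all 13369 genes the LG and MG changes had a Pearson r of 0.913 and a Spearman rho of 0.925, which is across genes that are not independent replicates. No gene passed the test of the difference between the LG and MG changes (0 of 13369 with edgeR, 0%), with a lowest adjusted p of 1.00. At an unadjusted p under 0.05 there were 439 genes with edgeR, 462 with DESeq2 and 393 with limma, which called 0 genes each after adjustment. Each count is under 1 in 20 of the 13369 genes, the share that chance alone gives at that threshold.

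In 192 of the 1839 genes the size of the change was over 2-fold apart between LG and MG. This count describes the selected genes only. It has no share over all tested genes beside it, and neither has the count within 1.5-fold. Of the rising genes, 130 changed more in LG and 9 more in MG, and of the falling genes, 19 changed more in LG and 34 more in MG. This imbalance moved with birth MG 17. Without that sample the counts were 59 and 19 for the rising genes and 21 and 27 for the falling genes. Also without it, 262 genes had an unadjusted interaction p under 0.05 in place of 439, both under 1 in 20 of those tested. The median log2 change of the 1046 rising genes was 1.97 in LG and 1.77 in MG with all samples, and 1.92 and 1.84 without birth MG 17.

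**Figure D5:**
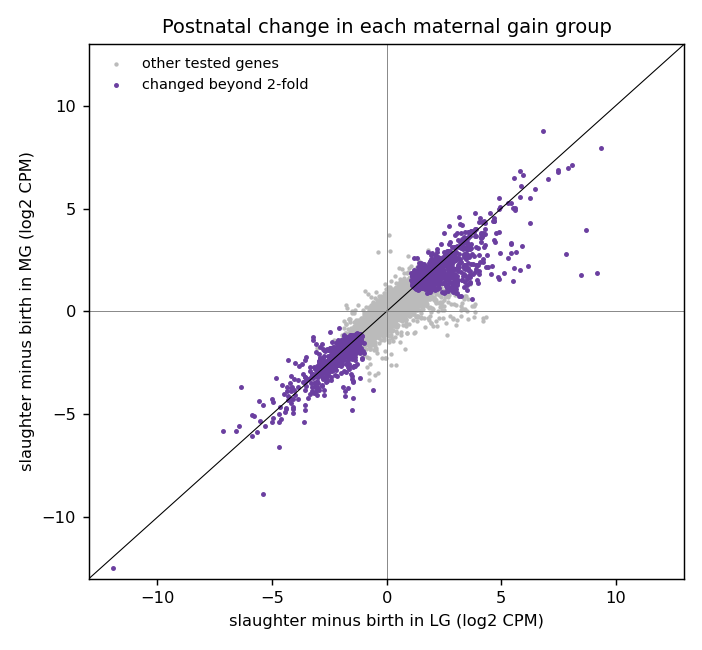
Change from birth to slaughter in LG (horizontal) against that in MG (vertical), both as log2 change of each of the 13369 tested genes, with the 1839 genes that changed beyond 2-fold in purple and the line marking equal changes. All purple points lie in the quadrants where both groups changed in the same direction. Among the rising genes 130 changed over 2-fold more in LG against 9 in MG. Without birth MG 17, which is included in the figure, these counts were 59 and 19. No gene passed the test of the difference between the LG and MG changes.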

How the data were processed

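Per the labels' protocols, polyA RNA went into non-directional libraries that were read at both ends over 150 bp. Counts per gene were deposited by the authors as whole numbers, 1 table for each stage with 27607 identifiers. The submitters' processing notes name STAR 2.7.3a, edgeR 3.24.3, FastQC 0.11.8 and MultiQC 1.9. What counted the reads, and on which build and annotation, is not given in the sources used here. Without strand, the reads of a gene and an overlapping antisense gene cannot be separated. The header of the slaughter table has no cell for the identifiers, and its first name was read as that of the first value column.

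In R 4.3.3, genes that passed filterByExpr over the 4 groups were TMM-scaled, and edgeR 4.0.16 gave the tests (robust quasi-likelihood, Benjamini-Hochberg adjustment at 0.05, and glmTreat against 2-fold). The contrast was the mean of LG and MG at slaughter minus that at birth. The interaction was tested in the same model. Also run were limma 3.58.1 (voom, sample weights), DESeq2 1.42.0, other scalings and filters, single gain groups, and leaving out each sample. The fit without birth MG 17, slaughter LG 14 and slaughter MG 47 was added after seeing the data. CPM at birth and slaughter use TMM-scaled totals of the 31 samples, and fetal CPM use those of all 47. The medians of gene sets set beside the fetus use the scaling of all 47 at every stage. For single genes, fetal values are thus scaled separately from the birth and slaughter values. Permutation tests used 100000 resamples in Python 3.11.15 with scipy 1.17.1. The edgeR scripts were tested on simulated counts. Over 105 pairs of samples within groups, 0 were identical, and chi-square was at least 23.2 per gene, so none was merged.

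The reference gene table holds 37063 genes and matched 0 identifiers. The rule for naming genes was therefore reduced to 2 identifiers per direction, those that changed most beyond 2-fold among genes of mean log2 CPM 3 or more. The 28 isoform pairs, 29 gene lists and the cell type markers were not run. The comparison, its lists and its rules were chosen with earlier results of these data known.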

Additional observations from a re-analysis of the deposited data

Results flagged for a closer look

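Samples that lay far from the others of their group were looked for in 23 measures within each group of 7 or 8 samples. This made 92 checks, and 13 of them flagged a sample, where chance alone gives about 1 in 20. Birth MG 17 accounted for 6 of them. In it 169 genes held 50% of counts against 90 in the next sample, the 10 most abundant genes held 17.3% against 23.04%, and 17211 genes had a count after thinning against 16400. Its level of the most abundant gene was 12809 CPM against 54992 CPM in the next sample. The gene of rank 12 at birth and rank 9 at slaughter had 3726 CPM there against 7480 CPM, and the gene of rank 10 at birth and rank 20 at slaughter had 4501 CPM against 9213 CPM.

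Slaughter MG 47 was the deepest sample of its group, with 32547565 counts against 21533995 in the next. ENSBTAG00000009489 was highest in birth LG 28 at 0.711 CPM and in birth MG 12 at 0.229 CPM, where the next samples had 0.245 and 0.0854 CPM. These 2 gaps rest on few counts, 14 against 5 in birth LG and 5 against 2 in birth MG. ENSBTAG00000010981 stood at 118 CPM in slaughter MG 20 against 52.6 CPM, and ENSBTAG00000051102 at 108 CPM in birth MG 37 against 50.8 CPM. The gene of rank 25 at birth and rank 5 at slaughter was low in slaughter LG 07, at 9296 CPM against 18210 CPM. The gene of rank 13 at birth and rank 7 at slaughter was high in birth MG 37, at 13816 CPM against 8989 CPM.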

How the results depend on the processing

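Of the values recomputed under the alternatives, 651 kept their direction and their side of the threshold or stayed within 1.5 times the reported count, 23 moved further and 1 reversed. The median change and the concentration measures were judged by set margins instead. Of the 651, 508 came from fits that left samples out and so share most of their data with the reported fit. Those fits also gave 5 that moved and the 1 that reversed. The other alternatives gave 143 that kept, 18 that moved and 0 that reversed. Requiring 1 CPM in every sample of a stage left 686 genes rising beyond 2-fold. MG samples alone gave 1215 genes beyond 2-fold, 585 of them rising and 630 falling. Counting a fitted change over 2-fold with an adjusted p under 0.05 gave 3139 genes, 1810 rising and 1329 falling. The limits of 3 and 0.5 CPM gave 0 genes switched on and 1 off, and 10 and 1 CPM gave 0 off. Leaving out each sample in turn gave 1 to 2 genes switched on. Without birth MG 17 the difference between slaughter and birth in the share of the 10 most abundant genes was -0.294 percentage points in place of 0.133. In all, 6 sample numbers occurred at both stages, but same-numbered samples did not deviate together throughout (r from 0.02 to 0.31, over 0.1 in 2 of 6, and best with their own number in 2). All 6 numbers had the same gain group at both stages. Every slaughter number also occurred among the fetuses, with the same gain group. Neither these values nor the numbers settle whether a shared number marks the same animal. The main test treats the samples as unpaired. With these numbers as a replicate block, 3183 genes rose, 1172 changed beyond 2-fold and 611 of those rose, against 3163, 1117 and 576 for the same samples without the block. The cause of these shifts was not tested, except that the fits on fewer samples and under the stricter filter hold fewer samples or genes. Of the scalings and fits run, those in which more genes fell than rose were, beside total counts, TMM without the 100 most abundant genes and the fit without birth MG 17 (4672 and 4697), MG alone (3452 and 3815), the 1 CPM filter (3799 and 4183), and the shared numbers with the block (3183 and 3613) and without it (3163 and 3466). The alternatives that needed mitochondrial gene names were not run.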
